A study of Mus musculus with 6 samples.

Results

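The comparison described here set 2 RNA-seq libraries titled CAF-1 OFF against 2 libraries titled IPTG treated control, both harvested at 24 h, which makes 4 of the 6 libraries of the series. Libraries were chosen by title alone, and all genes with enough reads to be tested were described, 12460 of 34199 gene symbols. The cells were HOXA9-immortalized granulocyte-macrophage progenitors (iGMPs), made from bone marrow of C57Bl/6 mice and labelled Lys-GFP-ER-HoxA9. They carry HOXA9 fused to the estrogen receptor, which keeps them dividing while estradiol (150 ng/ml) is present, and a GFP reporter driven by the Lysozyme promoter, and they grow with stem cell factor. In CAF-1 OFF, 500 µM IPTG switched on a LacO-controlled short hairpin RNA against Chaf1b for 24 h. The control cultures carried the same fusion and reporter and were also given IPTG, whose concentration the labels do not state. The remaining 2 libraries (HOXA9 OFF, estradiol washed out for 24 h) entered the fit to share its estimate of spread and serve below as a second reference. Hairpin cells were grown as clonal lines and the labels do not name the clones, so an effect of the hairpin and a difference between clones cannot be told apart. Nothing in the labels says that the 2 libraries of a group came from separate cultures, so p-values measure only the spread between these libraries.

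CAF-1 is the chaperone that places new H3-H4 on DNA behind the replication fork, and CHAF1B and CHAF1A are subunits of it. Outside replication, other chaperones such as HIRA and DAXX-ATRX place the variant histone H3.3. Granulocyte-macrophage progenitors give rise to neutrophils and monocytes, whose genes come on in waves, with primary granule proteins first and secondary granule and effector proteins later. Because whole cultures were sequenced, fewer cells of a type and less RNA per cell cannot be told apart.

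In the libraries compared, 16773560 to 25170898 reads were assigned to genes, and 3 reads corresponded to 0.118 to 0.174 CPM (counts scaled to a common library size, here with TMM factors for library composition). No library of a pair repeated the other within sampling noise (chi-square per degree of freedom 27.6 in CAF-1 OFF and 20.5 in control). Log2 CPM correlated across genes at 0.983 and 0.985 within the groups and at 0.975 to 0.982 between them, where genes are not independent replicates. The labelled cell type was checked with Cd34 and Kit (progenitor surface genes), Mpo (myeloperoxidase) and Ptprc (CD45). Cd34 stood at 1805 and 1797 CPM in the controls and 2128 and 1660 CPM in the CAF-1 OFF libraries, and Kit at 709.5 and 542 CPM in the controls and 676 and 810.1 CPM in the CAF-1 OFF libraries, so progenitor genes were present in all 4 libraries. Mpo stood at 6437 and 4109 CPM in the controls and 7928 and 7264 CPM in the CAF-1 OFF libraries, and Ptprc at 199.6 and 258 CPM in the controls and 232 and 309 CPM in the CAF-1 OFF libraries.

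Differences at 24 h were few at the threshold used. Calls required a 1.5-fold difference and, in edgeR's quasi-likelihood test, a false discovery rate (FDR, by Benjamini-Hochberg) below 0.05, which left 4 of 12460 genes, 0.0321%. Chaf1b fell, and Tub, Dgat2 and H3f3b rose. The calls depended on single libraries. All 4 held without CAF-1 OFF replicate 1, where edgeR called 8 genes. None of the 4 held without CAF-1 OFF replicate 2, control replicate 1 or control replicate 2, where edgeR called 0, 0 and 1 genes and 1568, 1087 and 763 had an unadjusted p under 0.05. With replicate number as a block in edgeR, Tub stayed called, and Chaf1b, Dgat2 and H3f3b had FDR 0.0562, 0.0562 and 0.0623. The call count depended on the test. The DESeq2 Wald test called 192 genes on the same reads, 163 of them higher and 29 lower, and all 4 genes were among them. At an unadjusted p under 0.05, 807 genes were higher in CAF-1 OFF (6.48% of those tested) and 523 were lower (4.2%). Both CAF-1 OFF libraries lay above both controls for 20.1% of genes and below both for 20% of genes. These shares are the background for each gene group below, where "higher" and "lower" refer to the unadjusted p and only the 4 called genes passed the test.

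**Figure D1:**
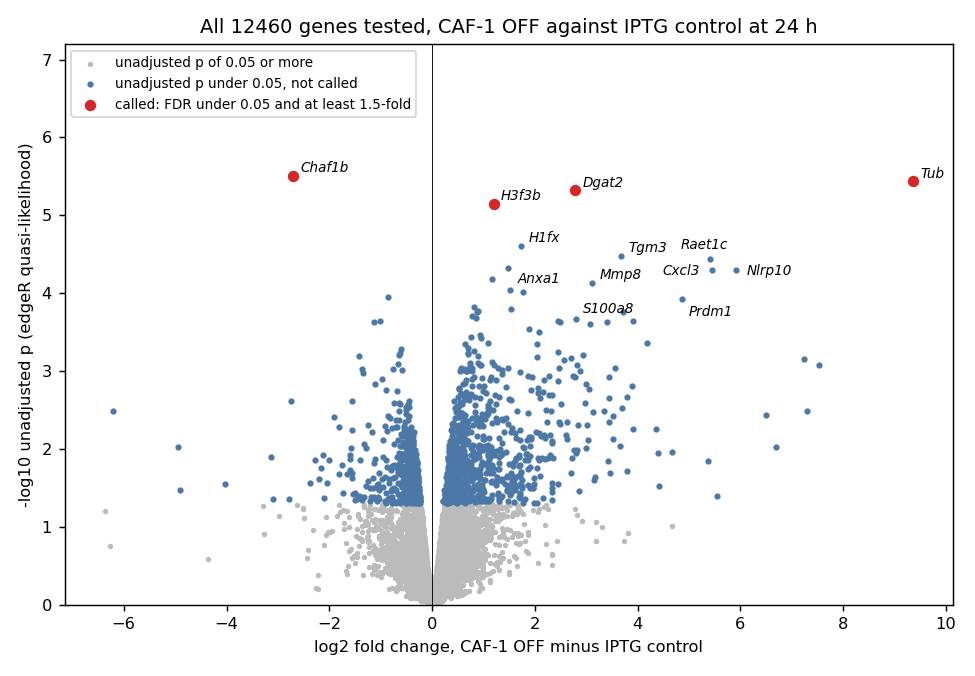
Log2 fold change of CAF-1 OFF against IPTG control (horizontal axis) and -log10 of the unadjusted edgeR p (vertical axis) for 12460 genes, 1 point per gene. The 4 called genes are red, with Tub far to the right and Chaf1b alone among them on the left, and blue points spread farther to the right than to the left.

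The excess on the higher side came from the larger differences and from genes with few reads. Of the 12460 genes, 84.3% differed by less than 0.5 on the log2 scale. Among genes at an unadjusted p under 0.05, 257 were higher and 312 lower when the difference was under 0.5. The split was 255 to 141 from 0.5 to 1, 182 to 54 from 1 to 2, and 96 to 12 from 2 to 4. At 4 or more it was 17 to 4. In the quartile of genes with the lowest mean level over the 6 libraries (at most 6.4 CPM), 250 genes were higher and 71 lower, so 77.9% of them were higher. In the other quartiles the share was 59.1%, 52.4% and 53.9%. The median log2 fold change of all genes was -0.004, and no scaling moved it by 0.1.

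**Figure D2:**
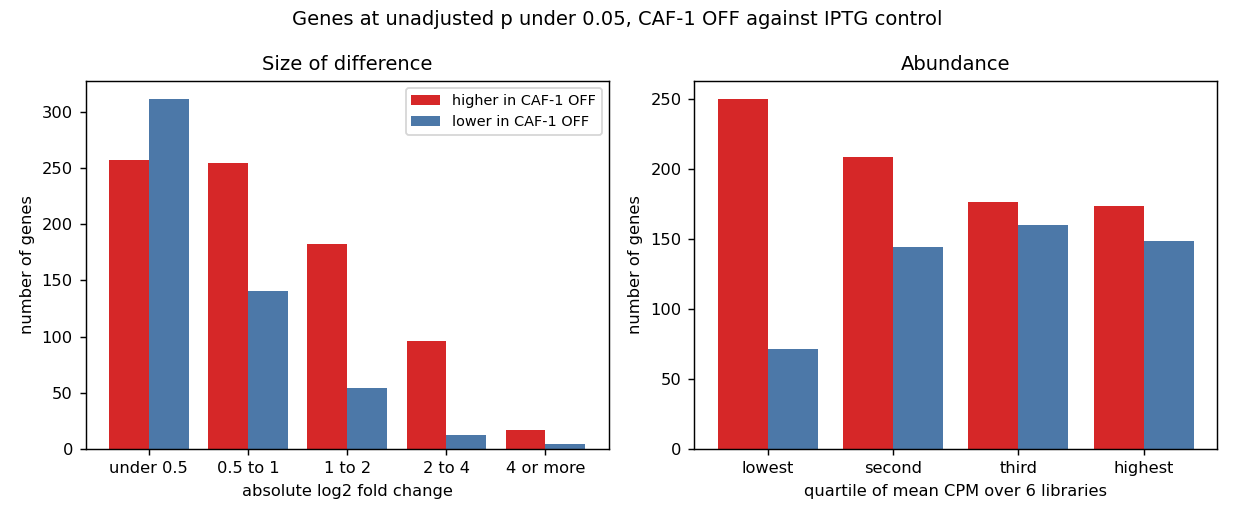
Number of genes at an unadjusted p under 0.05 that were higher (red) or lower (blue) in CAF-1 OFF, by absolute log2 fold change (left) and by quartile of mean CPM over the 6 libraries (right). Blue is taller only in the bin under 0.5, and red leads most in the lowest quartile, 250 to 71.

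The targeted gene and its relatives were examined first. Chaf1b (chromosome 16, 93884146 to 93906360 in NCBIM37, protein coding) stood at 90.0 and 105 CPM in the controls and 17.8 and 12.1 CPM in the CAF-1 OFF libraries. The groups did not overlap, and the gene fell by 2.71 on the log2 scale (SE 0.20, edgeR FDR 0.0198), so that 15.3% of the control level was left. Chaf1a, the gene for the large CAF-1 subunit, stood at 118 and 100.5 CPM in the controls and 101 and 102 CPM in the CAF-1 OFF libraries, with overlapping libraries and a log2 fold change of -0.10 ± 0.12 (edgeR FDR 0.814). Among 21 genes of H3-H4 chaperones, which include HIRA, ASF1, DAXX-ATRX and FACT components, none was higher and 1, Chaf1b, was lower. Leaving out Chaf1b, the values ran from -0.21 for Atrx to 0.16 for Spty2d1, and the list median was -0.008. Rbbp4, whose product is the remaining CAF-1 subunit and part of other chromatin complexes, and Hira, an H3.3 chaperone gene, had the smallest p after Chaf1b and differed by -0.16 ± 0.10 and -0.13 ± 0.09 on the log2 scale, with both CAF-1 OFF libraries below both controls in each. Transcripts of the remaining chaperones were thus within 0.21 of control on the log2 scale at 24 h.

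Tub gave the largest difference. It encodes the tubby protein, known from obesity and retinal degeneration in mice that lack it. Tub (chromosome 7, 116154339 to 116177974, plus strand) had 276 and 481 reads in the CAF-1 OFF libraries and 1 and 0 in the controls, where both controls lay under the 3 counts taken as the limit of detection. Set against 3 counts in each control library, the level of Tub in CAF-1 OFF was at least 133-fold higher (edgeR FDR 0.0198). The CAF-1 OFF libraries themselves differed, at 14.3 and 24.4 CPM. In HOXA9 OFF it had 0 and 1 counts, and the direct contrast of CAF-1 OFF with HOXA9 OFF was called too (edgeR FDR 0.000583).

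Only 2 other genes passed the same rule of at least 30 counts in both CAF-1 OFF libraries and at most 3 in both controls. Prdm1, which encodes the repressor BLIMP-1, had 72 and 41 reads in the CAF-1 OFF libraries and 2 and 2 in the controls and stood at least 19.9-fold higher against 3 counts per library (edgeR FDR 0.0931). In HOXA9 OFF it had 37 and 49 reads, and CAF-1 OFF differed from HOXA9 OFF by 0.30 on the log2 scale (edgeR FDR 0.649). Raet1c, a ligand of the natural killer receptor NKG2D, had 47 and 41 reads in the CAF-1 OFF libraries and 1 and 1 in the controls and was at least 15.5-fold higher (edgeR FDR 0.0626). In HOXA9 OFF it had 8 and 8 reads, and CAF-1 OFF differed from HOXA9 OFF by 2.37 (edgeR FDR 0.00863). Neither passed the threshold against control. No gene met the opposite rule.

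Dgat2 encodes an enzyme for the last step of triglyceride synthesis. It (chromosome 7, 106302173 to 106331223, minus strand) rose from 32.4 and 30.3 CPM in control to 200.3 and 232 CPM in CAF-1 OFF, a log2 fold change of 2.79 ± 0.22 (edgeR FDR 0.0198). The groups did not overlap. H3f3b (chromosome 11, 115883226 to 115889276, minus strand), 1 of the genes for the replacement histone H3.3, rose from 514 and 508 CPM to 1116 and 1229 CPM, by 1.20 ± 0.10 on the log2 scale (edgeR FDR 0.0221). H3f3a, the other H3.3 gene, had 310 and 261 reads in the CAF-1 OFF libraries and 358 and 241 in the controls and a log2 fold change of 0.06 ± 0.19, with overlapping libraries. H3f3b has processed copies in the mouse genome and reads that align to several places are left out by HTSeq-count, so its level may be under-counted.

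**Figure D3:**
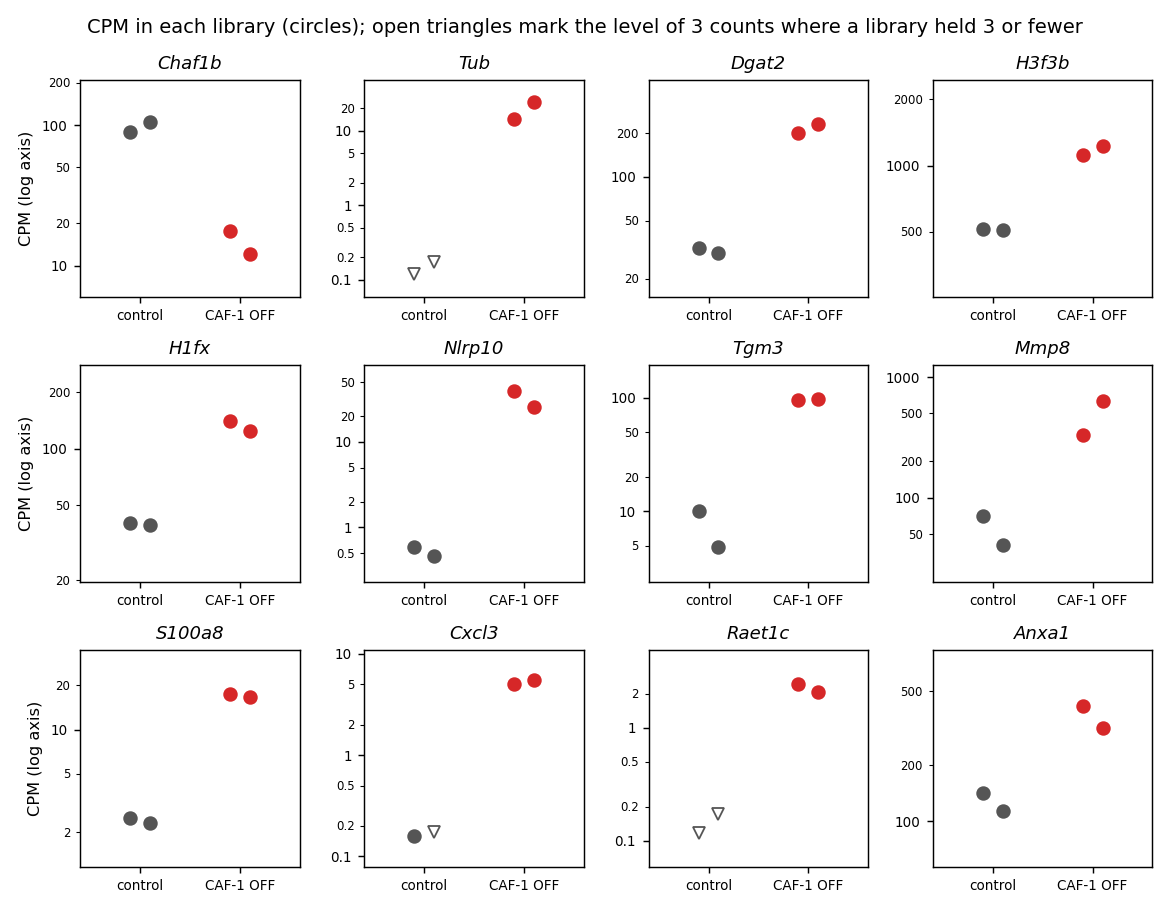
CPM on a log axis in each of the 2 control libraries (grey) and the 2 CAF-1 OFF libraries (red) for 12 genes. Open triangles mark the level of 3 counts where a library held 3 or fewer. In no panel do the groups overlap, and Chaf1b is the only panel with CAF-1 OFF below control.

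The promoters of Tub, H3f3b and H1fx are shown, Tub and H3f3b because both were called and H1fx because it encodes a further replacement histone (H1.10) and had the smallest p of the genes not called. Sequences run from 250 bases before to 50 bases after the RefSeq start, in GRCm38.p6, a later build than that of the gene coordinates above. They are the windows chr7:109010630-109010929 (plus strand), chr11:116024455-116024754 (minus strand) and chr6:87981433-87981732 (minus strand, listed as H1f10). Capitals mark the motifs searched on both strands.
Tub: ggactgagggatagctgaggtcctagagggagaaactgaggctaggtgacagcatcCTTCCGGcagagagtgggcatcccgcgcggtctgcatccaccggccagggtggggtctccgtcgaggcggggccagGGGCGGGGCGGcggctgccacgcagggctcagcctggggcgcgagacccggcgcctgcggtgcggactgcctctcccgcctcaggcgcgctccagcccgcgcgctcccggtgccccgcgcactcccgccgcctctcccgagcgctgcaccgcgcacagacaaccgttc
H3f3b: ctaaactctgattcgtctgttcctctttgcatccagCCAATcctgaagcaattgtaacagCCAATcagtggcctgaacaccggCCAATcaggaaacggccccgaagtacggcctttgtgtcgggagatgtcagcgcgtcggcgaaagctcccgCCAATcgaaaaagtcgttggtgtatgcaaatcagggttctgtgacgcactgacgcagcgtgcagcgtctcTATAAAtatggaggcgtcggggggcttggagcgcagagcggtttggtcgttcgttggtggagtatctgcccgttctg
H1fx: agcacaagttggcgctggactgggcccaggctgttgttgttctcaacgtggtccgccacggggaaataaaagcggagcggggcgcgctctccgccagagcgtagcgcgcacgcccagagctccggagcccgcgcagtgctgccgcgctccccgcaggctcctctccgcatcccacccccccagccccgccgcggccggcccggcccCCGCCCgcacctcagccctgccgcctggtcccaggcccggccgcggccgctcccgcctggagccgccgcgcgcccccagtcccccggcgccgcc
The motifs were the CCAAT box (CCAAT), the TATA box (TATAAA), the GC box (GGGCGG) and an ETS core (CCGGAAG). Of 27025 RefSeq promoter windows of the same length, 37.9%, 14.2%, 35.9% and 9.1% hold them, in that order. The Tub window holds 2 overlapping GC boxes and 1 ETS core on the reverse strand. The H3f3b window holds 4 CCAAT boxes and 1 TATA box, and the H1fx window 1 GC box on the reverse strand. These matches describe the letters only. No window was given for Dgat2 or Nlrp10.

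In the fit of all libraries, histone genes other than H3f3b mostly had positive values. H1fx stood at 40.4 and 39.2 CPM in the controls and 140.1 and 125 CPM in the CAF-1 OFF libraries (log2 fold change 1.73 ± 0.17, edgeR FDR 0.0619), which was the smallest FDR outside the called genes. Of 10 replication-independent histone variants, H3f3b and H1fx were higher and none was lower, and 9 had a positive value. H2afz, H2afy and Cenpa lay within 0.1 of control on the log2 scale. The canonical histone genes, which are used during S phase, mostly make transcripts without poly(A) tails, and 48 of 70 did not pass the read filter. Of the 22 that did, 5 were higher (22.7%, against 6.48% of all genes) and none was lower, with a median of 0.42. Hist1h1c had 31.7 and 36.8 against 24.0 and 20.0 CPM in CAF-1 OFF against control (unadjusted edgeR p 0.00363), and Hist2h2be 20.4 and 21.0 against 13.6 and 13.6 CPM (p 0.00437). The summed level of the 22 genes was 96.1 and 94.3 CPM in CAF-1 OFF and 57.4 and 63.6 CPM in control. That median rested on 1 control library, since it was -0.04 without control replicate 1 and 0.94 without control replicate 2.

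Genes of DNA replication, by contrast, had a median of -0.03 over 46 genes. The list, which holds minichromosome maintenance, origin, polymerase and nucleotide supply genes, gave 2 higher genes, Rrm2 and Cdc6, and no lower one. Rrm2, a subunit of ribonucleotide reductase, stood at 387 and 383 CPM in the controls and 541 and 584 CPM in the CAF-1 OFF libraries (log2 fold change 0.55 ± 0.10). Cdc6, a licensing factor, stood at 85.1 and 88.7 CPM in the controls and 104 and 108 CPM in the CAF-1 OFF libraries (log2 fold change 0.29 ± 0.10). Of 28 mitosis genes, 2 were higher, the kinetochore genes Ndc80 and Nuf2, by 0.29 and 0.28 on the log2 scale. The list leaned 1 way by small amounts, with 23 positive values, 13 genes whose CAF-1 OFF libraries both lay above both controls (20.1% in all genes) and a median of 0.13.

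G1 regulators held 5 higher genes of 20 and none lower. These were Cdkn2c, Ccnd3, E2f2, Ccne2 and Cdkn1b, which include cyclins as well as inhibitors. Cdkn2c, the CDK4 and CDK6 inhibitor p18, had 79.7 and 80.2 against 48.5 and 45.9 CPM in CAF-1 OFF against control (log2 fold change 0.76 ± 0.12, edgeR FDR 0.128). Ccnd3, encoding cyclin D3, had 122 and 101 against 70.4 and 62.1 CPM (log2 fold change 0.75 ± 0.15). Targets of p53 gave both directions, 2 higher and 3 lower of 22. Gtse1 and Pmaip1 (the apoptosis gene Noxa) were higher by 0.53 and 0.64 on the log2 scale, whereas Sesn1, Bbc3 (Puma) and Trp53inp1 were lower, at -0.58, -0.62 and -1.12. Trp53inp1 had a wide gap between the controls, at 6.13 and 16.8 CPM, against 5.40 and 5.01 CPM in the CAF-1 OFF libraries.

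Neutrophil genes held the group with the highest median among lists of at least 3 genes tested. Of 18 late neutrophil genes (secondary and tertiary granules, calprotectin, NADPH oxidase, receptors), 9 were higher and none was lower, 50% against 6.48% of all genes, with a median of 1.16. Both CAF-1 OFF libraries lay above both controls for 14 of the 18. The 18 include Lyz1, which passed the read filter only with HOXA9 OFF in the fit. No member passed edgeR's threshold, and 7 were called higher by DESeq2. Mmp8, the neutrophil collagenase, stood at 70.1 and 40.5 CPM in the controls and 332 and 630.2 CPM in the CAF-1 OFF libraries (log2 fold change 3.12 ± 0.37, edgeR FDR 0.0757). The calprotectin genes S100a8 and S100a9 stood at 17.4 and 16.6 against 2.51 and 2.32 CPM and at 5.61 and 5.27 against 1.02 and 0.929 CPM in CAF-1 OFF against control (log2 fold changes 2.80 ± 0.39 and 2.46 ± 0.44, edgeR FDR 0.0976 and 0.153). Chi3l3 differed between the controls as well, at 15.8 and 5.63 CPM in the controls and 46.4 and 63.6 CPM in the CAF-1 OFF libraries. Cebpe, the transcription factor of the secondary granule stage, had 212 and 197 against 112 and 78.1 CPM (log2 fold change 1.10 ± 0.24). The summed level of the list was 766 and 1045 CPM in CAF-1 OFF and 309 and 240 CPM in control, and without Mmp8 it was 434 and 415 CPM against 239 and 199 CPM.

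Primary granule genes were already abundant in control. Of 12, 5 were higher (41.7%) and none was lower, with a median of 0.27. Elane (neutrophil elastase) stood at 457 and 284 CPM in the controls and 683 and 929 CPM in the CAF-1 OFF libraries, Ms4a3 at 292 and 204 CPM in the controls and 561 and 487 CPM in the CAF-1 OFF libraries and Fcnb at 36.5 and 23.5 CPM in the controls and 79.3 and 64.9 CPM in the CAF-1 OFF libraries, with log2 fold changes of 1.12 ± 0.33, 1.08 ± 0.25 and 1.26 ± 0.30. Mpo differed by 0.53 ± 0.22. In each of these 4 genes control replicate 2 was the lowest library.

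Against the HOXA9 OFF libraries, which lost estradiol for the same 24 h, late neutrophil genes were mostly lower in CAF-1 OFF. The direct contrast of CAF-1 OFF with HOXA9 OFF called 9.56% of all genes higher in CAF-1 OFF and 12.6% lower. Among the 12124 genes that pass the read filter without HOXA9 OFF, it called 1191 higher and 1452 lower. Of the 18 late neutrophil genes, Lyz1 passed the read filter only through HOXA9 OFF, where it was high. Of the other 17, edgeR called 15 below HOXA9 OFF and 1 above it, and the median difference was -3.46 on the log2 scale. Of the 12 primary granule genes, 3 were called below HOXA9 OFF and 2 above it, Ctsg and Cst7 (by 0.67 and 0.97 on the log2 scale), with a median of -0.24. S100a8 differed by -3.74 (edgeR FDR 0.000982) and Chi3l3 by -5.32 (edgeR FDR 0.00115). Mmp8 was the exception, at 3.02 (edgeR FDR 0.00235). In Csf1r, the receptor for macrophage colony-stimulating factor, the difference was -5.41 (edgeR FDR 0.00016).

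Monocyte and macrophage genes gave 3 higher of 20 and none lower, with a median of 0.51. Ly6c2, a monocyte surface gene, had 102 and 150.5 against 28.9 and 17.2 CPM in CAF-1 OFF against control (log2 fold change 2.44 ± 0.35, edgeR FDR 0.0976). Mrc1, the mannose receptor, had 29 and 43 reads in the CAF-1 OFF libraries and 9 and 1 in the controls. Irf8, the monocyte lineage factor, stood at 35.6 and 26.9 CPM in the controls and 32.9 and 86.0 CPM in the CAF-1 OFF libraries (log2 fold change 0.93 ± 0.40), with a wide gap between the CAF-1 OFF libraries and overlap with control. The list sum was 1782 and 2301 CPM in CAF-1 OFF and 1678 and 1775 CPM in control. Without CAF-1 OFF replicate 2 the median was 0.21.

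Genes of other blood lineages gave higher members at an unadjusted p and no lower ones. EdgeR called none, and DESeq2 called 3, all megakaryocyte and erythroid genes (Gfi1b, Pf4 and Cd9). Of 22 megakaryocyte and erythroid genes tested, 7 were higher (31.8%) and none was lower, with a median of 0.47. Gfi1b, a repressor needed in both lineages, had 3.53 and 2.48 against 0.550 and 0.348 CPM (log2 fold change 2.69 ± 0.46), and Pf4, platelet factor 4, 14.2 and 9.22 against 2.63 and 2.84 CPM (log2 fold change 2.09 ± 0.44). The list sum was 1713 and 1548 CPM in CAF-1 OFF and 1564 and 1347 CPM in control, so it overlapped, and 13 members, among them Hbb-b1, Alas2, Slc4a1 and Gp6, had at most 11 counts in any of the 4 libraries and were not tested.

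Of 14 mast cell, basophil and eosinophil genes, 4 were higher and none was lower. The CAF-1 OFF libraries differed from each other here, with Cpa3 (mast cell carboxypeptidase) at 468 and 178 CPM and Mcpt8 (a basophil protease) at 107 and 44.1 CPM. Control stood at 158 and 128 CPM for Cpa3 and at 34.8 and 32.6 CPM for Mcpt8, below both. The list sum was 2230 and 1663 CPM in CAF-1 OFF and 1501 and 1058 CPM in control. Fcer1a, Tpsab1 and Mcpt4 did not pass the filter.

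Lymphoid genes gave 5 higher of 18 and none lower, while 8 of the 18 had a negative value. Thy1 stood at 19.4 and 8.94 CPM in the controls and 94.5 and 25.5 CPM in the CAF-1 OFF libraries, and Dntt, the V(D)J polymerase of lymphoid progenitors, at 1.81 and 1.34 CPM in the controls and 4.36 and 3.95 CPM in the CAF-1 OFF libraries. Ebf1, a B lineage factor, was expressed throughout, at 94.0 and 98.5 CPM in the controls and 121 and 115 CPM in the CAF-1 OFF libraries. The list sum was 699 and 507 CPM in CAF-1 OFF and 387 and 672 CPM in control, so it overlapped. The median, 0.17, was -0.26 without control replicate 1 and 0.74 without control replicate 2. T cell and B cell defining genes (Cd3d, Cd3e, Cd3g, Cd4, Cd8a, Pax5) were among 18 members with at most 7 counts in any library. Of 7 genes tested from the nonhematopoietic list, Pecam1 and Fn1 were higher. Pecam1 was expressed in control too, at 241 and 236 CPM against 286 and 308 CPM in CAF-1 OFF, so it does not mark another tissue here. Fn1 rested on 1 library, with 0 and 219 reads in the CAF-1 OFF libraries and 5 and 0 in the controls. The part of other cell types in these differences was not tested.

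Progenitor genes differed in both directions. Of 22, 5 were higher and 1 was lower, with a median of 0.22. Fcgr2b, an Fc receptor, Csf2rb, the common beta chain of cytokine receptors, and Pbx3, a HOX cofactor, were higher, by 0.89 ± 0.12, 0.71 ± 0.11 and 0.83 ± 0.14 on the log2 scale (edgeR FDR 0.0976, 0.152 and 0.153). Meis1, the other HOX cofactor of the list, was lower, at 42.8 and 56.3 CPM in the controls and 31.1 and 29.7 CPM in the CAF-1 OFF libraries (log2 fold change -0.70 ± 0.17, edgeR FDR 0.26). Hoxa9 had 3928 and 5342 reads in the CAF-1 OFF libraries and 7040 and 3681 in the controls, a log2 fold change of -0.05 ± 0.17, and its reads do not separate the fusion from the endogenous gene here. Cebpa stood at 233 and 273 CPM in the controls and 372 and 212 CPM in the CAF-1 OFF libraries, Sfpi1 (PU.1) at 187 and 155 CPM in the controls and 220 and 185 CPM in the CAF-1 OFF libraries and Elf1 at 189 and 175 CPM in the controls and 156 and 169.7 CPM in the CAF-1 OFF libraries. Their log2 fold changes were 0.21 ± 0.24, 0.24 ± 0.16 and -0.16 ± 0.11. The groups overlapped for Cebpa and Sfpi1, both CAF-1 OFF libraries lay below both controls for Elf1, and none of these myeloid factors passed an unadjusted p under 0.05.

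**Figure D4:**
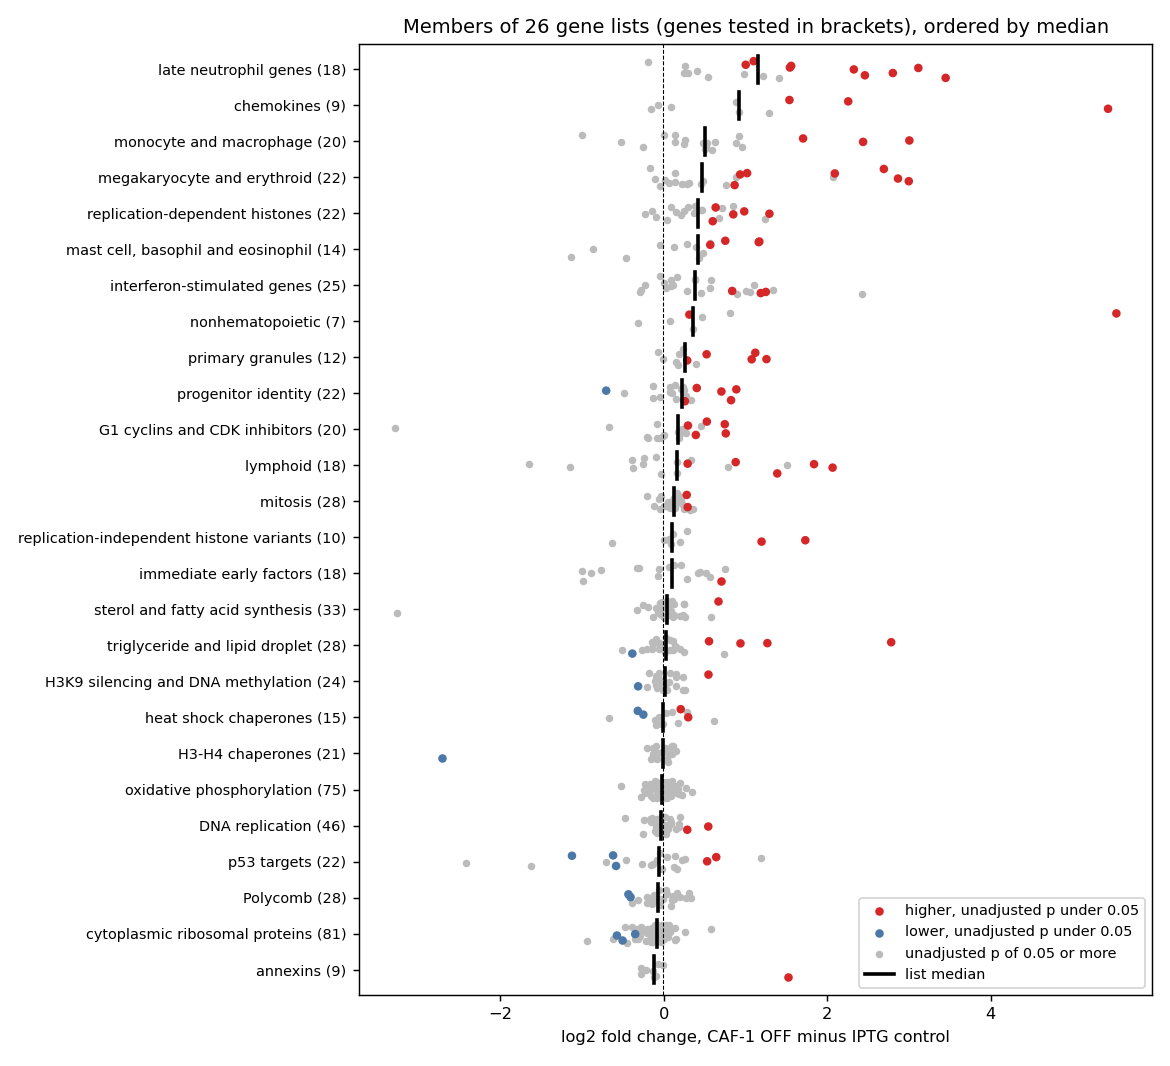
Log2 fold changes of the tested members of 26 gene lists, 1 point per gene, with the list median as a black bar and the median of all genes as a dashed line. Red and blue points had an unadjusted p under 0.05. Late neutrophil genes have the highest median, 1.16, and lists of replication, respiration and ribosome genes stay near 0.

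Inflammatory ligands included large differences at low counts. Of 9 chemokine genes tested, 3 were higher and none was lower, with a median of 0.92. Another 11 of the 20 listed did not pass the read filter. Cxcl3 and Cxcl9 passed it only through CAF-1 OFF, so they could only come out higher. In HOXA9 OFF, Cxcl3 had 3 and 7 reads and Cxcl9 had 3 and 2. Cxcl3, a neutrophil attractant, had 97 and 108 reads in the CAF-1 OFF libraries and 4 and 1 in the controls (log2 fold change 5.44 ± 0.60, edgeR FDR 0.0626). Cxcl9 and Cxcl10, which interferon induces, stayed near 1 CPM or under, at 0.623 and 0.810 against 0.0786 and 0.232 CPM and 1.25 and 1.32 against 0.511 and 0.348 CPM. Among 25 interferon-stimulated genes, 3 were higher and none lower, namely Ifih1, Usp18 and Ddx58, and the median was 0.39. That count and median include 6 genes that passed the read filter only with HOXA9 OFF in the fit. None of the 3 higher genes was among them. Ifih1, which encodes the RNA sensor MDA5, had 31.7 and 53.1 against 20.7 and 14.7 CPM (log2 fold change 1.25 ± 0.27, edgeR FDR 0.213). The list sum was 242 CPM in both CAF-1 OFF libraries and 195 and 192 CPM in control. Immediate early factors gave 1 higher gene of 18, Maff, and a median of 0.10.

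Of 9 NKG2D ligand genes listed, 2 had enough reads to be tested, Raet1c and Raet1d, and both were higher. Raet1c passed the read filter only through CAF-1 OFF, so it could only come out higher. Beside Raet1c, Raet1d had 114 and 102 reads in the CAF-1 OFF libraries and 29 and 14 in the controls (log2 fold change 2.48 ± 0.35, edgeR FDR 0.0976). Raet1 genes are near-identical copies, so the split of reads between them is uncertain. Of 9 annexins, Anxa1, an anti-inflammatory phospholipid binder, was higher, at 141 and 113 CPM in the controls and 415 and 316 CPM in the CAF-1 OFF libraries (log2 fold change 1.52 ± 0.19, edgeR FDR 0.0865), and the other 8 had values from -0.27 to -0.01.

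Dgat2 was the only called gene of the lipid metabolism lists. Of 28 triglyceride and lipid droplet genes, 4 were higher (14.3%, against 6.48% of all genes) and 1 was lower, with a median of 0.02. Mogat2, which feeds diacylglycerol to DGAT enzymes, had 19.4 and 21.7 against 11.7 and 5.05 CPM (log2 fold change 1.27 ± 0.45), with a wide gap between the controls. Agpat3 and Fitm2 were higher by 0.94 and 0.56 on the log2 scale, and Plin2, a lipid droplet coat gene, was lower, at 71.4 and 69.7 against 90.7 and 93.2 CPM (log2 fold change -0.38 ± 0.11). Of 33 sterol and fatty acid synthesis genes, 1 was higher, Hsd17b7, and none was lower, with a median of 0.04.

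Silencing machinery and genes of unrelated tissues showed little. In the list of H3K9 methylation and DNA methylation genes, 1 of 24 was higher (Atf7ip) and 1 lower (Ehmt2, the H3K9 methyltransferase G9a, at 193 and 188 CPM in the controls and 156 and 150.4 CPM in the CAF-1 OFF libraries). Polycomb genes gave 2 lower of 28, Aebp2 and Ezh1, at -0.40 and -0.43 on the log2 scale. Of 35 germline and early embryo genes in the files, 32 did not pass the filter, and the 3 tested gave none higher and none lower. Sycp2 had 0 and 1 reads in the CAF-1 OFF libraries and 130 and 0 in the controls, so its value rested on 1 control library. Of 19 neuronal genes in the files, 4 were tested and none was higher or lower.

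Housekeeping groups had medians near 0. Of 81 cytoplasmic ribosomal protein genes, none was higher and 3 were lower (Rpl10, Rpl10a and Rpl24), with a median of -0.08 and a list sum that overlapped between groups, at 30716 and 24911 CPM in CAF-1 OFF and 28678 and 30751 CPM in control. The list had 61 negative values, 18 genes whose CAF-1 OFF libraries both lay below both controls (20% in all genes) and 1 with both above (20.1% in all genes). None of 75 oxidative phosphorylation genes was higher or lower, and the median was -0.02. Heat shock chaperones gave 2 higher and 2 lower of 15. Hsp90b1 and Hspa5, both of the endoplasmic reticulum, were higher by 0.30 and 0.21 on the log2 scale, and Dnajb1 and Hsf1 were lower, at -0.32 and -0.25.

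By size, the 15 largest increases with an unadjusted p under 0.01, a mean of at least 1 CPM and groups that did not overlap were Tub, Nlrp10, Cxcl3, Raet1c, Prdm1, Vcam1, Rapgef4, Tgm3, Serpinb2, Cybb, Cftr, Il33, Mmp8, Gm364 and Mrc1. Their log2 fold changes were chosen for size and are given as a description. Nlrp10, a NOD-like receptor protein, had 763 and 498 reads in the CAF-1 OFF libraries and 15 and 8 in the controls (log2 fold change 5.91 ± 0.66, edgeR FDR 0.0626). Tgm3, a transglutaminase best known from skin, stood at 10.1 and 4.82 CPM in the controls and 96.7 and 97.7 CPM in the CAF-1 OFF libraries (log2 fold change 3.67 ± 0.38, edgeR FDR 0.0626). Il33, an alarmin cytokine, stood at 0.943 and 0.522 CPM in the controls and 5.35 and 10.6 CPM in the CAF-1 OFF libraries, and Rapgef4 (EPAC2, a cyclic AMP sensor) at 0.628 and 0.232 CPM in the controls and 4.88 and 7.09 CPM in the CAF-1 OFF libraries. Vcam1, an adhesion molecule, differed within CAF-1 OFF, at 5.87 and 22.0 against 0.668 and 0.871 CPM (log2 fold change 4.19 ± 0.66), as did Cftr, a chloride channel, at 4.88 and 16.5 against 1.49 and 0.348 CPM. Cybb, the NADPH oxidase subunit of phagocytes, had 35 and 56 reads in the CAF-1 OFF libraries and 8 and 1 in the controls and differed from HOXA9 OFF by -4.01 on the log2 scale (edgeR FDR 0.00257).

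Several more genes reached an FDR under 0.1, where 26 genes were higher and 4 lower at 1.5-fold, and were picked for naming after their values were seen. Tgm2, a second transglutaminase gene, had 43.0 and 36.7 against 12.3 and 16.4 CPM (log2 fold change 1.48 ± 0.16, edgeR FDR 0.0626). Pim1, a survival kinase induced by cytokines, had 27.2 and 22.6 against 10.7 and 11.4 CPM (log2 fold change 1.17 ± 0.14, edgeR FDR 0.0751). Col4a2, a basement membrane collagen, had 32.6 and 35.0 against 8.21 and 11.7 CPM, and Flt1, a receptor for vascular endothelial growth factor, 33.8 and 43.8 against 15.4 and 11.3 CPM. The groups did not overlap in any of these 4.

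Decreases were smaller. Besides Chaf1b, the largest under the same rule were Angptl6, Phf21b, Chac1, Paqr3, AC027184.1, Pi16, B3galtl, Zfp345 and Mir5125, 9 genes with log2 fold changes from -1.91 to -1.28. Chac1, a glutathione-degrading enzyme induced in the integrated stress response, stood at 4.79 and 7.43 CPM in the controls and 2.18 and 1.92 CPM in the CAF-1 OFF libraries (log2 fold change -1.57 ± 0.34, edgeR FDR 0.206). Pi16, a peptidase inhibitor, stood at 39.2 and 66.9 CPM in the controls and 21.7 and 19.2 CPM in the CAF-1 OFF libraries (log2 fold change -1.37 ± 0.25, edgeR FDR 0.153). AC027184.1 is annotated as misc_RNA, not as protein coding, and had 195 and 196 reads in the CAF-1 OFF libraries and 745 and 418 in the controls. EdgeR called none of the 9 and DESeq2 called 6 of them. Cyb5r1 and Ubfd1, picked after their values were seen, were lower at edgeR FDR 0.0915 and 0.0976, with log2 fold changes of -0.87 ± 0.11 and -1.01 ± 0.14.

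Some of the genes with large increases lie beside each other. Tested genes within 100 kb were listed for 17 genes with a known position, the called increases and the largest increases. They had 28 distinct neighbours outside the set, of which 6 were higher (21.4%, against 6.48% of all genes) and 2 lower (7.1%, against 4.2%). Within the set, Tub and Nlrp10 lie 80667 bp apart on chromosome 7, and Eif3f, a translation initiation factor gene between them, was at 534 and 563 CPM in the controls and 672 and 558 CPM in the CAF-1 OFF libraries (log2 fold change 0.16 ± 0.13). Pf4 lies 12722 bp from Cxcl3, and Mmp27, a further metalloproteinase gene, 2910 bp from Mmp8, with 24 and 28 reads in the CAF-1 OFF libraries and 9 and 8 in the controls (log2 fold change 1.71 ± 0.43). Mogat2 lies 36371 bp from Dgat2. Serpinb10-ps overlaps Serpinb2 in the annotation, so reads of the pair cannot be assigned with certainty. Around H3f3b, the 9 tested neighbours ran from -0.42 for Galk1 to 0.44 for Wbp2. These neighbours were examined after the values were seen and neighbouring genes are not independent of each other.

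**Figure D5:**
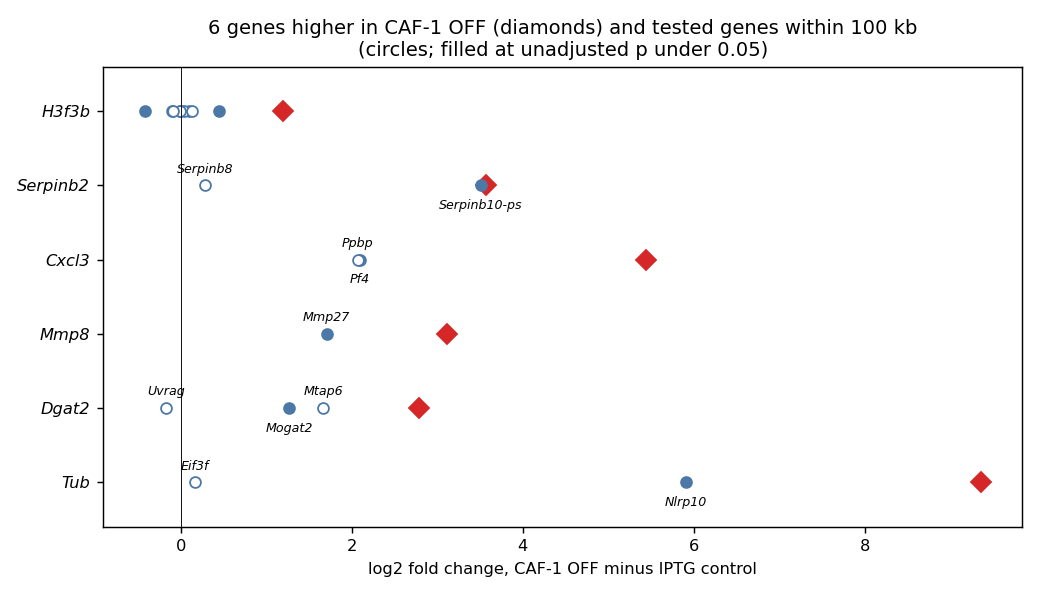
Log2 fold change in CAF-1 OFF against control for 6 genes (red diamonds) and the tested genes within 100 kb of each (circles, filled at an unadjusted p under 0.05). Beside Tub, Nlrp10 is at 5.91 while Eif3f is at 0.16, and beside H3f3b the neighbours scatter around 0.

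In the direct contrast with HOXA9 OFF, all 3 called increases were also higher in CAF-1 OFF. The contrast uses the same CAF-1 OFF libraries that chose these genes, so it is not independent of the choice. H3f3b differed by 1.41 (edgeR FDR 0.000478) and Dgat2 by 1.61 (edgeR FDR 0.00278). In HOXA9 OFF, Dgat2 stood at 85.8 and 55.6 CPM, above both controls, and H3f3b at 455 and 428 CPM, below both controls. H1fx differed by 2.59 (edgeR FDR 0.000467) and Tgm3 by 4.73 (edgeR FDR 0.000922). For Chaf1b the same difference was -2.08 (edgeR FDR 0.00101). By list, members that passed the read filter only with the HOXA9 OFF libraries in the fit were left out of the counts of this contrast (2 lymphoid genes, 2 megakaryocyte and erythroid genes, 1 monocyte and macrophage gene and 6 interferon-stimulated genes). Of 16 lymphoid genes, 9 were called higher and 1 lower. Over all genes on the same footing, 1191 of 12124 were called higher and 1452 lower. HOXA9 OFF lay below control for Thy1 (1.88 and 1.27 against 19.4 and 8.94 CPM). It also did for Dntt (0.0965 and 0.182 against 1.81 and 1.34 CPM). For Prf1 it lay above control (1.11 and 2.12 against 0.511 and 0.639 CPM). Between CAF-1 OFF and control the lymphoid list sum overlapped. Among 19 monocyte and macrophage genes 1 was called higher and 11 lower, and among 19 interferon-stimulated genes 1 higher and 7 lower. Among 20 megakaryocyte and erythroid genes 4 were called higher and 3 lower.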

How the data were processed

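RNA from iGMP cultures was sequenced with the NEBNext UltraDirectional kit on an Illumina HiSeq instrument. The authors used STAR to map reads to mouse mm9 and HTSeq-count to count them (tools and build also named in the submitters' processing notes), and the deposited values are raw read counts, not normalized. The gene annotation, strand setting and overlap mode are not given in the sources used here, so overlapping and antisense genes are uncertain. 5 tally lines per file were left out (reads in no feature came to 5.95 to 7.30 per 100 gene counts and alignments to several places to 92.8 to 106.7 per 100 in the libraries compared).

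Groups and replicate numbers came from the titles. Counts of 6 libraries were filtered with filterByExpr and fitted in edgeR 4.0.16 (R 4.3.3, limma 3.58.1) with TMM scaling and 1 mean per group. P-values were adjusted over all 12460 genes (Benjamini-Hochberg). SE came from the quasi-likelihood F statistic, and every test was two-sided. Alternatives were DESeq2 (1.42.0), other scalings, filters and cutoffs, the 4 libraries alone, a replicate block and leaving out each library.

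Members and 29 gene lists were chosen with earlier results of these data known. Named genes are the called ones, the 15 largest increases and 10 largest decreases (unadjusted p under 0.01, mean CPM of at least 1, groups not overlapping), the 4 list members with the smallest p, members needed to state an exception, genes on in 1 group only, and Chaf1a, Hoxa9, Cebpa, Elf1 and Sfpi1. Other genes were named after their values were seen. Floors of 3 counts per library cover counting error only, as PCR reads are not independent molecules. Gene positions (1-based) were taken from GENCODE for NCBIM37, which mm9 names, where 12262 of 12460 symbols matched 1 gene. Promoter windows are from RefSeq, and 9543 of 12460 tested genes matched one by symbol, under 80%, so motif shares were not compared between gene sets. Hairpin sequences are not printed.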

Additional observations from a re-analysis of the deposited data

How the results depend on the processing

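The count of called genes ranged widely. It was 4 in the main analysis and 192 with the DESeq2 Wald test, 378 with no filter, 9 with the 4 libraries compared alone, 30 at an FDR under 0.1 and 0 at 2-fold and an FDR under 0.01. With no fold limit, 1330 genes had an unadjusted edgeR p under 0.05 in the same fit. Leaving out 1 library gave between 0 and 8 called genes. It was 8 without CAF-1 OFF replicate 1, where all 4 genes were called, 0 without CAF-1 OFF replicate 2, 0 without control replicate 1 and 1 (Olfml2b) without control replicate 2. In the fits with 0 calls, 1568 and 1087 genes had an unadjusted edgeR p under 0.05. Each such fit assumes that the lone library varies like the other groups. The count at an unadjusted p under 0.05 ranged from 763 without control replicate 2 to 1902 with no filter. DESeq2 size factors, library size alone and a mean CPM of at least 5 each called all 4 genes. Under the replicate block Tub stayed called, Anxa1 became called (2 in all), and Chaf1b, Dgat2 and H3f3b had edgeR FDR 0.0562, 0.0562 and 0.0623. Deviations of same-numbered libraries correlated at -0.178 across genes, so the numbers were not taken to pair the cultures. A crossed replicate block, added after the data were seen, called 71 genes, 62 higher and 9 lower. The count of genes on in CAF-1 OFF and off in control was 3, 25 with at least 10 counts in place of 30, and 0 with 0 counts required in both controls. Fold changes near 0 or resting on 1 library turned sign when 1 library was left out. Fn1 ran from -4.23 to 9.69, Chaf1a from -0.20 to 0.022, Hoxa9 from -0.25 to 0.15 and Cebpa from -0.26 to 0.57. For the other named genes checked no alternative reversed the direction. Depth limits genes near 3 counts per library, and 2 libraries per group limit every test. The cause of these changes was not tested.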

Other observations

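Chromosome 1 held a larger share of higher genes than the genome as a whole. Of 717 genes tested there, 76 were higher at an unadjusted p under 0.05 (10.6%, against 6.48% of all genes) and 15 were lower (2.09%, against 4.2%). The shift was not equal in the libraries. Over 555 chromosome 1 genes with a mean of at least 5 CPM, the median log2 difference from the control mean was 0.01 in CAF-1 OFF replicate 1 and 0.10 in CAF-1 OFF replicate 2. The controls stood at 0.05 and -0.05, and HOXA9 OFF at 0.09 and -0.03.

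5 genes had no read in either control and at least 10 in both CAF-1 OFF libraries, too few for the naming rule on largest increases, and were named after their values were seen. Ryr2, a calcium release channel, had 27 and 11 reads in the CAF-1 OFF libraries and 0 and 0 in the controls. Sec14l4, a lipid-binding protein gene, had 18 and 27 reads in the CAF-1 OFF libraries and 0 and 0 in the controls, and Irg1, the itaconate-producing enzyme of activated macrophages, had 15 and 10 reads in the CAF-1 OFF libraries and 0 and 0 in the controls. Gm595 and 5730528L13Rik had 13 and 24 reads in the CAF-1 OFF libraries and 0 and 0 in the controls and 10 and 12 reads in the CAF-1 OFF libraries and 0 and 0 in the controls. None passed the edgeR threshold (the smallest FDR was 0.153). In the opposite direction Copz2 had 0 and 0 reads in the CAF-1 OFF libraries and 14 and 6 in the controls (edgeR FDR 0.23).

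Of 1197 genes with an unadjusted p under 0.05 and a mean of at least 1 CPM, the CAF-1 OFF libraries were more than 2-fold apart for 32 and the control libraries for 26, after an offset of 0.5 CPM.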
